A study of Homo sapiens with 6 samples.

Results

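The histone methyltransferases that act on lysine 4 or lysine 36 of histone H3 were examined in RNA-seq of the tumor core (TC) and the tumor margin (TM). The family was chosen by name, with no measured value in the rule: KMT2A, KMT2B, KMT2C, KMT2D, SETD1A and SETD1B for H3K4, and SETD2, NSD1, NSD2 and NSD3 for H3K36. Earlier results of these data were known when the members, the other lists and the tests were chosen. All 10 genes were found among the 60671 annotated genes of the deposited matrix, and all 10 passed the filter on low values (1 TPM or more in 3 or more samples), as did 13861 genes in all. The tumors were grown from the human MDA-MB-231 line (triple-negative breast cancer, labelled wild type), injected orthotopically with Matrigel into the mammary fat pads of young adult female NSG (NOD/SCID/IL2Rγ-null) mice, a strain that lacks T, B and NK cells, and no other treatment was given. There were 3 TC and 3 TM samples, and the labels do not say whether a TC and a TM sample with the same replicate number came from the same tumor. The study describes core and margin tissue separated from tumors, with separate mice within a group, but the labels name no animals. Other core and margin measures of the study were compared by paired tests, while the main fit here treats the samples as unpaired. The p-values set a difference against the spread between these samples, which limma partly pools across genes.

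These enzymes share a catalytic SET domain that transfers methyl groups from S-adenosylmethionine to a lysine side chain. Methylated H3K4 marks promoters and enhancers. KMT2A to KMT2D, SETD1A and SETD1B each work inside a COMPASS complex, built on the shared subunits WDR5, RBBP5, ASH2L and DPY30. SETD1A and SETD1B place most trimethylation at active promoters, KMT2A and KMT2B act at promoters of developmental genes, and KMT2C and KMT2D place monomethylation at enhancers. On H3K36, NSD1, NSD2 and NSD3 place the dimethyl mark. SETD2, which travels with elongating RNA polymerase II, places the trimethyl mark over gene bodies.

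The promoter windows of 5 members are shown, since NSD2, KMT2B, KMT2D and SETD1A had the smallest p-values in the comparison of TC with TM and SETD2 was among those that hardly differed. Each window runs from 250 bases before to 50 bases after a transcription start in RefSeq (GRCh38.p14), 5′ to 3′ on the strand of the gene. Capitals mark the letters GGGCGG or their reverse complement CCGCCC, the GC box that SP1-like factors can bind.
NSD2 (chr4:1871143-1871442, plus strand): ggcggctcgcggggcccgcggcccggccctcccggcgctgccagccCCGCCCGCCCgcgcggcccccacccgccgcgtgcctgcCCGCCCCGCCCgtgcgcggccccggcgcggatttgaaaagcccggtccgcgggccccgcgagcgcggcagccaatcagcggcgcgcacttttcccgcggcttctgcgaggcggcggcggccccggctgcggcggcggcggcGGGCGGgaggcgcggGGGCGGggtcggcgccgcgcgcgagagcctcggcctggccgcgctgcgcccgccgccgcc
KMT2B (chr19:35717753-35718052, plus strand): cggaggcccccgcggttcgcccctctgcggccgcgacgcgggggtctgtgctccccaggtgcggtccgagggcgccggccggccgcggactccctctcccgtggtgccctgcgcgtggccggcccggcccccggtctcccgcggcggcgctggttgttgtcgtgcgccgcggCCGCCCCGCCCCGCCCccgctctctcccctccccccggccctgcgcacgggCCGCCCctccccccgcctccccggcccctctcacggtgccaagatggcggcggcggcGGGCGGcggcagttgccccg
KMT2D (chr12:49060745-49061044, minus strand): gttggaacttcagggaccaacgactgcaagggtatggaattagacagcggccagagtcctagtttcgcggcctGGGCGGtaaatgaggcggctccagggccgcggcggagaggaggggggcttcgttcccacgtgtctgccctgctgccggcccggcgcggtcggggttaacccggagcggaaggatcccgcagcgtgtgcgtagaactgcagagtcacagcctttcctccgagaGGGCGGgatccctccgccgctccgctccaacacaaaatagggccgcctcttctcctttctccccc
SETD1A (chr16:30957504-30957803, plus strand): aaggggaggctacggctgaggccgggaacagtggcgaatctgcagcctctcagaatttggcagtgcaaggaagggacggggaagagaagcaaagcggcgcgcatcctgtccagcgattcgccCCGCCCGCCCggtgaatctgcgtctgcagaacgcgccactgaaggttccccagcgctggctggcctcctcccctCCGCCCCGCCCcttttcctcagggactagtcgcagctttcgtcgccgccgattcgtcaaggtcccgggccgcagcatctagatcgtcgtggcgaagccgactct
SETD2 (chr3:47164064-47164363, minus strand): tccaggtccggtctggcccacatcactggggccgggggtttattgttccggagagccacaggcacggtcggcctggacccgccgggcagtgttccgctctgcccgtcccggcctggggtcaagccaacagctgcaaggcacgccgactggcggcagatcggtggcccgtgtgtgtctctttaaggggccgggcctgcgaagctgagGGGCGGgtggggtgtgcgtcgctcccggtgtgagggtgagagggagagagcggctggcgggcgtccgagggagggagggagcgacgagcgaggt

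The letters occurred 6 times in the window of NSD2, 5 times in KMT2B, 4 times in SETD1A, 2 times in KMT2D and 1 time in SETD2 (both strands, overlapping matches counted). KMT2A held 3 and KMT2C 15, and 1 to 4 were found in the 5 windows listed for NSD1. SETD1B and NSD3 were not among the windows used. Of 35116 promoter windows of this length 45.0% held the letters at least 1 time. The G and C content of the printed windows was 65.0% in KMT2D and SETD1A, 70.3% in SETD2, 83.3% in KMT2B and 86.7% in NSD2, against a median of 58.7% over all windows. It was 76.3% in KMT2A and 88.7% in KMT2C, and the 5 windows of NSD1 spanned 52.3% to 78.7%, so 1 of them lay below that median. A match describes the letters only.

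The values were TPM, a length-corrected abundance, which keeps no read depth, and precision was judged from the spread between samples alone. In 5 samples the columns summed to 1000000 within rounding, while TM replicate 3 summed to 994381, and the loci assembled outside the annotation held 21.1 TPM there against 1574 to 2643 TPM in the other samples. Across the tested genes, Pearson r of log2(TPM + 1) between 2 samples lay between 0.935 and 0.973. The line was checked by its markers: VIM was at 3797 to 5283 TPM, CD44 at 197 to 267 TPM and AXL at 133 to 205 TPM, while ESR1, PGR and CDH1 were each at 0.36 TPM or lower in all 6 samples. ERBB2 was at 22.3 to 40.7 TPM and EPCAM at 3.66 to 6.02 TPM. Measured in bulk tissue, a lower value can come from fewer cells that express a gene or from less RNA per cell, and these cannot be told apart.

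First, the levels of the members within each zone were compared. In TC, NSD2 had the highest mean, at 18.0 ± 2.41 TPM (SD, n = 3), followed by SETD2 at 16.9 ± 4.82, KMT2D at 16.6 ± 4.96 and KMT2B at 14.8 ± 2.17 TPM (SD, n = 3). NSD3, NSD1 and KMT2A lay between 10.7 and 11.3 TPM, and SETD1A, KMT2C and SETD1B were lowest, at 8.80, 6.04 and 3.96 TPM. In TC the sample ranges of every pair of neighbors in this order overlapped. In TM, NSD2 (33.6 ± 1.55 TPM), KMT2D (32.8 ± 8.58) and KMT2B (27.5 ± 5.42; SD, n = 3) stood above the others, and the gap between KMT2B, with a lowest sample of 22.6 TPM, and SETD2, with a highest sample of 21.0 TPM, was the only gap between neighbors whose ranges did not overlap. SETD1B was the lowest member in 5 of 6 samples, and in TM replicate 3 NSD3 was lowest (6.22 TPM). SETD2 was thus level with KMT2D in TC and below every KMT2D value of TM.

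**Figure D1:**
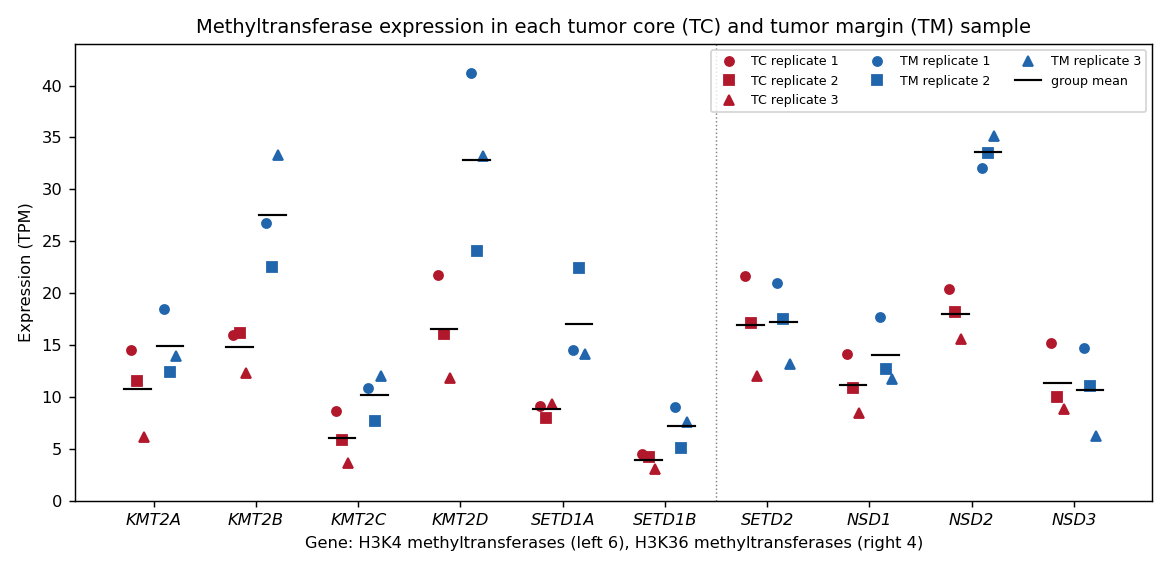
Expression (TPM) of the 10 methyltransferases in each sample, with TC in red, TM in blue, a marker shape per replicate number and a bar at the group mean (n = 3). The TC and TM points do not overlap for KMT2B, KMT2D, SETD1A, SETD1B and NSD2, and they lie at the same height for SETD2 and NSD3.

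To see which members differed between core and margin, limma was run on log2(TPM + 1) over all 13861 genes. At an adjusted p-value under 0.05, 0 of 10 members were called. Of all tested genes 0.137% (19) were called, and the smallest adjusted p-value of a member was 0.0813 (limma, NSD2). An unadjusted p-value under 0.05 with a lower level in TC was reached by 6 of 10 members (5 of 6 for H3K4 and 1 of 4 for H3K36), against 14.2% of all tested genes. In 5 of 10 members every TC sample lay below every TM sample, against 18.9% of all tested genes. Both shares over all genes were higher among genes of high transcript GC content, as given below. The median log2 difference of the members, TC minus TM, was -0.71, and that of all tested genes was -0.14. Of all tested genes 67% were lower in TC, and whether scaling gave this shift was not tested. The median of all tested genes became 0.021 after median-of-ratios rescaling and 0.014 after quantile normalization, and the members' median then became -0.56 and -0.52.

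**Figure D2:**
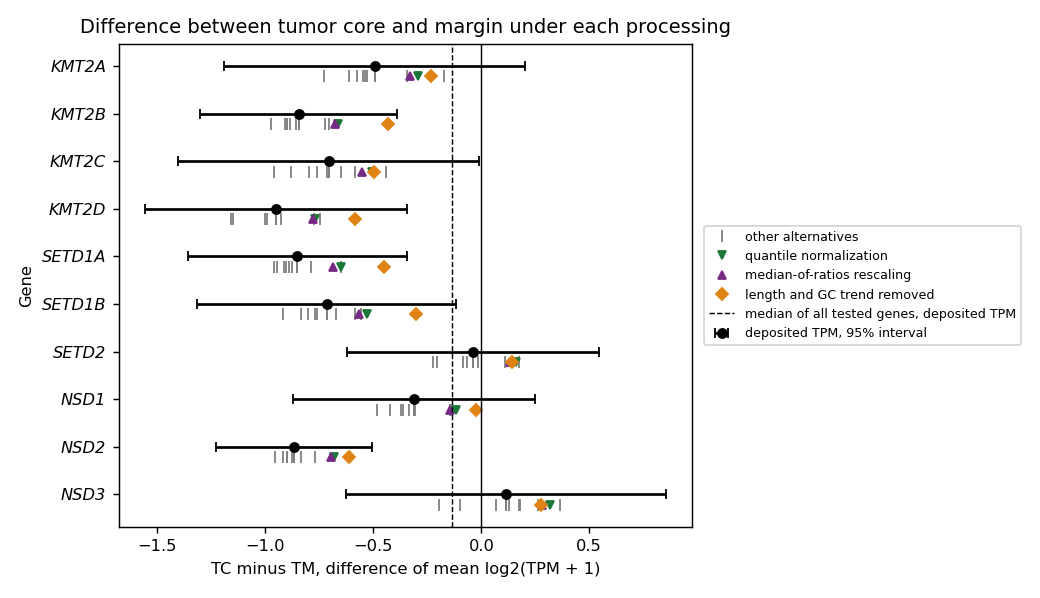
TC minus TM difference of mean log2(TPM + 1) for each member, with its 95% interval from limma (black) and, just below it, the value under each of 17 alternatives. Colored symbols show both rescalings and the removal of the length and GC trend, and in these SETD2 and NSD3 lie above 0. Over the 17 alternatives SETD2 and NSD3 lie on both sides of 0, and every other member stays below 0.

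Among the H3K4 enzymes, the zones did not overlap in KMT2B, KMT2D, SETD1A and SETD1B. KMT2B (ENSG00000272333; chromosome 19, 35718019 to 35738878, plus strand; GENCODE v29, GRCh38) had 15.97, 16.1 and 12.3 TPM in the TC replicates, in order of their numbers, against 26.8, 22.6 and 33.3 TPM in TM. The mean was 1.86-fold higher in TM, and the groups did not overlap (log2 difference -0.85, SE 0.20, limma adjusted p = 0.0999). Its relative KMT2A (ENSG00000118058; chromosome 11, 118436464 to 118526832, plus strand), the MLL gene that is rearranged in leukemia, was at 14.5, 11.6 and 6.17 TPM in TC and 18.4, 12.4 and 13.98 TPM in TM. Here TC replicate 1 exceeded TM replicates 2 and 3, and the log2 difference of -0.49 had a 95% interval from -1.19 to 0.20 (limma adjusted p = 0.489).

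KMT2D (ENSG00000167548; chromosome 12, 49018975 to 49059774, minus strand), an enhancer enzyme often mutated in cancer, was at 21.8, 16.1 and 11.9 TPM in TC and 41.2, 24.1 and 33.2 TPM in TM. The highest TC value was thus below the lowest TM value, and the mean was 1.98-fold higher in TM (log2 difference -0.95, SE 0.26, limma adjusted p = 0.139). KMT2C (ENSG00000055609; chromosome 7, 152134922 to 152436005, minus strand) was at 8.62, 5.83 and 3.68 TPM in TC and at 10.9, 7.64 and 12.01 TPM in TM. TC replicate 1 lay above TM replicate 2, so the groups overlapped (log2 difference -0.71, SE 0.30, limma adjusted p = 0.303). KMT2C has partial copies elsewhere in the genome that can share its reads. Of these, KMT2CP5 was at 0.06 TPM or lower and BAGE2 at 1.02 TPM or lower, and KMT2CP1, KMT2CP2, KMT2CP3 and KMT2CP4 were at 0 in all 6 samples.

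SETD1A (ENSG00000099381; chromosome 16, 30957294 to 30984664, plus strand) was at 9.10, 7.99 and 9.31 TPM in TC and 14.5, 22.4 and 14.1 TPM in TM. Its 3 TC values lay close together and below every TM value, and TM replicate 2 was the highest (1.93-fold, log2 difference -0.85, SE 0.22, limma adjusted p = 0.124). SETD1B (ENSG00000139718; chromosome 12, 121804180 to 121832584, plus strand) was lower in level, at 4.54, 4.22 and 3.11 TPM in TC and 9.05, 5.10 and 7.60 TPM in TM. The groups did not overlap, with TM replicate 2 only slightly above TC replicate 1 (log2 difference -0.72, SE 0.26, limma adjusted p = 0.230). Thus TM replicate 2 was the highest TM sample for SETD1A and the lowest for SETD1B.

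Among the H3K36 enzymes, NSD2 stood apart. NSD2 (ENSG00000109685; chromosome 4, 1871424 to 1982207, plus strand), known from its translocation in multiple myeloma, was at 20.4, 18.2 and 15.6 TPM in TC and 32.1, 33.5 and 35.2 TPM in TM. Both groups were narrow and clearly separated, at a 1.86-fold higher mean in TM (log2 difference -0.87, SE 0.16, 95% interval -1.23 to -0.51, limma adjusted p = 0.0813). NSD1 (ENSG00000165671; chromosome 5, 177133025 to 177300215, plus strand), the gene of Sotos syndrome, was at 14.2, 10.9 and 8.47 TPM in TC and 17.8, 12.7 and 11.7 TPM in TM. TC replicate 1 lay above both lower TM samples, and the log2 difference of -0.31 had an interval from -0.87 to 0.25 (limma adjusted p = 0.601).

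NSD3 (ENSG00000147548; chromosome 8, 38269697 to 38382272, minus strand), which lies in a region amplified in some breast cancers, was at 15.2, 9.98 and 8.82 TPM in TC and 14.7, 11.1 and 6.22 TPM in TM. The ranges almost coincided, and NSD3 was the only member with a higher fitted mean in TC (log2 difference 0.12, 95% interval -0.62 to 0.85, limma adjusted p = 0.904). SETD2 (ENSG00000181555; chromosome 3, 47016429 to 47163967, minus strand), the main trimethylase of H3K36, was at 21.6, 17.1 and 12.0 TPM in TC and 21.0, 17.5 and 13.2 TPM in TM. Its log2 difference was -0.038, with an interval from -0.62 to 0.55 (limma adjusted p = 0.969). Changes of up to about that size in either direction thus remain compatible with these 3 samples against 3. The sign of SETD2 turned with the processing, as it was at 0.13 after median-of-ratios rescaling. That of NSD3 turned only when a sample was left out, as it was at -0.20 without TM replicate 3.

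Next, 6 pairs of related members were compared as within-sample log2 ratios of TPM + 1, from which the scaling of a sample drops out only in part because of the added 1. The TC samples had NSD2 to NSD3 ratios of 0.40, 0.80 and 0.75, and the TM samples had 1.07, 1.51 and 2.32. The means were 0.65 ± 0.22 and 1.64 ± 0.64 (SD, n = 3), and the groups did not overlap (two-sided exact permutation p = 0.1, which is the lowest that 3 against 3 can give, adjusted p = 0.2 over 6 pairs). The ratio of NSD1 to NSD2 averaged -0.66 ± 0.16 in TC against -1.22 ± 0.36 in TM (SD, n = 3, exact permutation p = 0.1, adjusted p = 0.2). Its zones were barely apart, with TC replicate 3 at -0.81 and TM replicate 1 at -0.82, and with a pseudocount of 0.1 they overlapped (exact permutation p = 0.2). The ratio of NSD1 to NSD3 averaged -0.011 ± 0.11 in TC against 0.42 ± 0.35 in TM (SD, n = 3) without overlap (exact permutation p = 0.1, adjusted p = 0.2). For KMT2A to KMT2B the TC minus TM difference of the ratio was 0.35 (exact permutation p = 0.4), for KMT2C to KMT2D 0.25 (exact permutation p = 0.2) and for SETD1A to SETD1B -0.14 (exact permutation p = 0.9), and in all 3 pairs the groups overlapped. No pair can reach a p-value under 0.05 in this design.

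**Figure D3:**
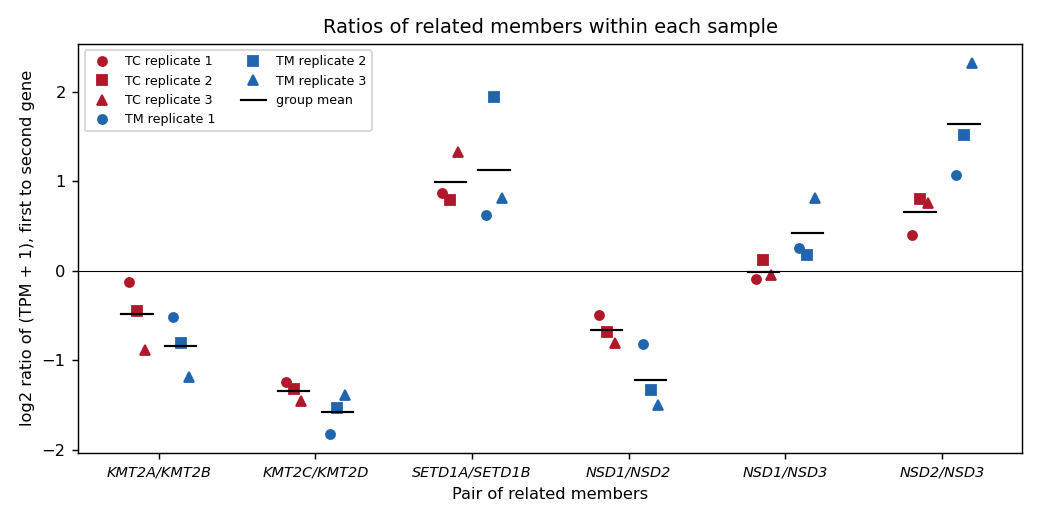
Within-sample log2 ratio of (TPM + 1) for 6 pairs of related members, with TC in red, TM in blue, a marker shape per replicate number and a bar at the mean of 3 samples. The zones separate for NSD2 to NSD3 and NSD1 to NSD3, are barely apart for NSD1 to NSD2 (overlapping with a pseudocount of 0.1) and overlap for the KMT2 and SETD1 pairs.

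Together the 6 H3K4 enzymes summed to 74.5, 61.8 and 46.4 TPM over the TC replicates and to 120.8, 94.2 and 114.2 TPM in TM, and the 4 H3K36 enzymes to 71.3, 56.1 and 44.9 TPM in TC and 85.5, 74.7 and 66.3 TPM in TM. The H3K4 sums of the zones did not overlap, while the H3K36 sum of TC replicate 1 exceeded that of TM replicate 3. The H3K4 enzymes took 50.9% to 52.4% of the members' TPM in TC and 55.8% to 63.3% in TM. Whether the 2 classes differed in their response was not tested. Within a zone the members also moved with the sample: TC replicate 3 was the lowest TC sample in 9 of 10 members (51.7% of all tested genes) and TC replicate 1 the highest in 8 of 10 (50.6% of all tested genes). The exceptions were SETD1A, with TC replicate 3 highest and TC replicate 2 lowest, and KMT2B, with TC replicate 2 highest. In TM, replicate 1 was highest in 6 of 10 members, replicate 3 in KMT2B, KMT2C and NSD2, and replicate 2 in SETD1A. Over all tested genes these samples were the highest of TM in 44.2%, 28.2% and 27.5%.

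The transcripts of the members are long. The longest annotated transcript had 6451 bases in SETD1A and 19419 bases in KMT2D, with a median of 9672 bases over the members against 3329 bases over the 13772 tested genes with a known length. The GC content of that transcript split the family: it was 59.1% to 63.5% in KMT2D, SETD1B, SETD1A and KMT2B and 42.0% to 47.2% in NSD3, SETD2, KMT2C, NSD2, KMT2A and NSD1. Across all tested genes the median log2 difference also moved with GC content, from 0.048 under 40% to -0.27 between 60% and 65%. The difference followed GC content less closely within the family at the low end, as NSD2 (45.6% GC, -0.87) and KMT2C (45.0% GC, -0.71) lay far below the median of -0.16 of the 2449 genes between 45% and 50%. Spearman's rho between GC content and the difference was -0.62 over the 10 members and -0.30 over the 13772 genes, and it is given as a description, since the genes share their libraries. By length the members showed no such order (rho -0.055), while rho with length over the 13772 genes was -0.18.

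**Figure D4:**
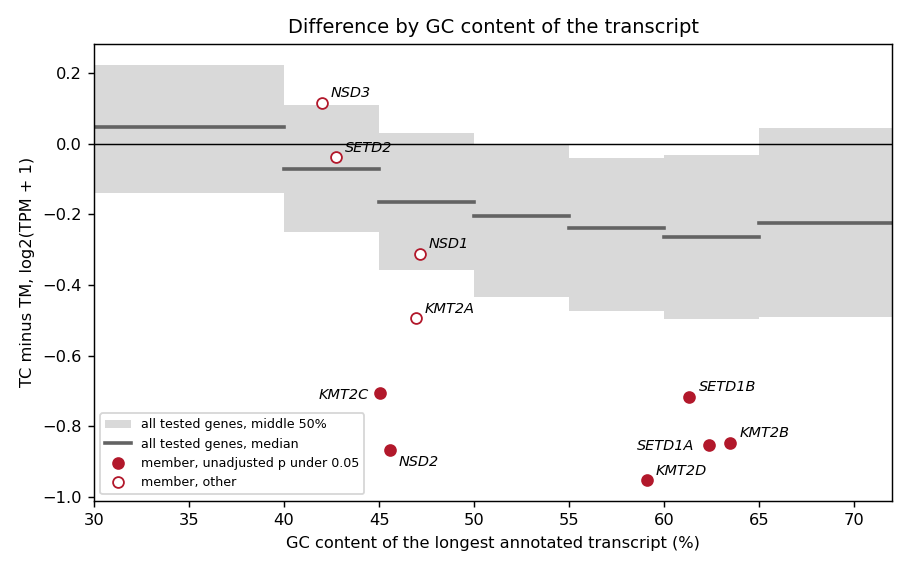
TC minus TM difference in log2(TPM + 1) against the GC content (%) of the longest annotated transcript, with the median (line) and middle 50% (grey) of all tested genes per GC range and the members as circles, filled at an unadjusted p-value under 0.05. The 4 members above 55% GC and NSD2, KMT2C and KMT2A between 45% and 50% GC lie below the grey band, and SETD2, NSD1 and NSD3 lie in it or just above it.

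When each sample's trend over length and GC content was removed, the members' median became -0.37 and that of all genes 0.028. An unadjusted p-value under 0.05 was kept by 3 of 10 members, each lower in TC, against 6.04% of all genes in that fit. The log2 difference of NSD2 was then -0.61, that of KMT2D -0.59 and that of KMT2B -0.43, while SETD1A was at -0.45, KMT2C at -0.50 and SETD1B at -0.30. KMT2A was at -0.235 and NSD1 at -0.026.

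The tumors grew in mice, and no step was described that removes mouse reads, which can align to human genes of like sequence. The summed TPM of 7 skeletal muscle markers was 5.65 to 7.81 in TC and 188, 463 and 4.06 in TM replicates 1, 2 and 3, and that of 8 fibroblast markers was 65.1 to 223.5 in TC and 474, 1001 and 88.5 in TM. The fibroblast sum was mostly collagen, with COL1A1 alone at 334.5, 698 and 62.9 TPM in TM. DCN and PDGFRB were at 4.95 TPM or lower in all samples, and LUM, PDGFRA and THY1 at 0.38 TPM or lower. In TM replicate 3 the muscle sum was below and the fibroblast sum within the range of the TC samples. Among the TM samples, KMT2B (33.3 TPM), KMT2C (12.01 TPM) and NSD2 (35.2 TPM) were highest in replicate 3. SETD1A (22.4 TPM) was highest in replicate 2 and the other 6 members in replicate 1. The 4 members SETD1A, SETD2, NSD1 and NSD3 were lowest in TM replicate 3, as were 47.1% of all tested genes. The endothelial markers (5 genes) summed to 3.72 to 4.33 TPM in TC and 3.85 to 6.84 TPM in TM, the 6 macrophage markers to 95.4 to 106.7 and 102.3 to 109, the 5 adipocyte markers to 0.34 to 0.48 and 0.60 to 0.87 and the 5 erythroid markers to 1.10 to 6.93 and 0.29 to 4.82. Most of the macrophage sum was CD68 (84.8 to 94.2 TPM), and CD14 and MRC1 were at 0.73 TPM or lower. ADIPOQ, LEP and HBA2 were at 0 in every sample. The part of host RNA in the members' values was not tested.

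Other annotated genes overlap some members. DDHD2, on the opposite strand of NSD3, was at 11.3 to 28.2 TPM, and IGFLR1, on the opposite strand of KMT2B, was at 5.95 to 13.9 TPM. The other overlapping genes were at 2.74 TPM or lower, except SCARNA22, inside NSD2 on the same strand, which was listed at 38.8 TPM in TC replicate 3 and at 0 in the other 5 samples. The methods name an orientation mode for the alignment and do not say whether the quantification used strand, and strand would not part same-strand neighbors from a member in any case.

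Next, the partners and opponents of the members were examined in 8 lists that hold 72 genes, of which 71 were tested. The number called was 0 in each list, 21 of the 71 had an unadjusted p-value under 0.05 and were lower in TC, and 0 were higher at that threshold. Of all tested genes 14.2% passed that threshold with a lower level in TC and 0.137% were called (limma). With a higher level in TC, 268 of 13861 genes passed it. The median log2 difference of the 71 genes was -0.27. Of the 4 shared COMPASS subunits 1 passed the unadjusted threshold: WDR5, the scaffold that binds the enzymes, had a mean of 27.5 ± 3.02 TPM in TC against 37.2 ± 6.30 TPM in TM (SD, n = 3), and the groups overlapped (log2 difference -0.41, limma adjusted p = 0.297). DPY30, the smallest subunit, went the other way, at 112, 108 and 126 TPM in TC and 99.4, 75.2 and 103.9 TPM in TM, with every TC sample above every TM sample (log2 difference 0.32, limma adjusted p = 0.367). The differences of RBBP5 (-0.22) and ASH2L (-0.099) were smaller than their standard errors (0.30 and 0.16).

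Of 12 subunits particular to some complexes 3 had an unadjusted p-value under 0.05 and were lower in TC, against 14.2% of all tested genes. CXXC1, the CpG-binding subunit of the SETD1 complexes, was at 20.3, 24.6 and 18.1 TPM in TC and 34.6, 35.2 and 42.0 TPM in TM (log2 difference -0.80, SE 0.17, limma adjusted p = 0.0843). MEN1 (menin), which holds KMT2A and KMT2B on chromatin, differed by -0.66, and HCFC1 by -0.71, and in all 3 genes the zones did not overlap. Of all tested genes 18.9% were lower in TC without overlap. PSIP1 had the highest difference (0.23, SE 0.38). The median of these 12 subunits was -0.28.

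Of 8 tested genes among the other H3K4 or H3K36 methyltransferases and SET-domain relatives, SETD5 alone passed, at 39.4, 36.7 and 24.9 TPM in TC and 69.6, 58.2 and 68.0 TPM in TM (log2 difference -0.96, SE 0.19, limma adjusted p = 0.0843). Of all tested genes 14.2% passed the unadjusted threshold with a lower level in TC. SMYD2 was at the other end of this list (0.12), and SMYD1, a muscle enzyme, was too low to test, with its highest value of 0.65 TPM in TM replicate 2. Among the enzymes that remove the marks, 2 of 5 H3K4 demethylases (KDM5C, -0.71, and KDM1A, -0.43) and 2 of 6 H3K36 demethylases (KDM2A, -0.87, and KDM2B, -0.56) had an unadjusted p-value under 0.05. All were lower in TC, as were 14.2% of all tested genes at that threshold. KDM2A was at 15.5, 16.02 and 11.3 TPM in TC and 23.0, 24.95 and 32.6 TPM in TM (limma adjusted p = 0.102), with every TC sample below every TM sample. KDM5A (0.017) and KDM4C (0.16) had the highest differences of these lists, and neither passed.

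Of 13 proteins that read methylated H3K36, 5 had an unadjusted p-value under 0.05: DNMT3B (-0.68), BRPF1 (-0.57), BRD1 (-0.54), GLYR1 (-0.45) and PHF19 (-0.37). The share of all tested genes lower in TC at that threshold was 14.2%, here and for the H3K4 readers below. PSIP1 was highest here too. Of 12 readers of H3K4, PHF8 alone passed, at 3.40, 3.60 and 2.24 TPM in TC and 7.08, 4.92 and 8.35 TPM in TM (log2 difference -0.92, limma adjusted p = 0.148), and ING3 was highest (0.096). The 12 methyltransferases of other histone residues had a median of -0.497, with 12 of 12 lower in TC (67% of all tested genes) and 6 of 12 at an unadjusted p-value under 0.05 (14.2% of all tested genes). DOT1L, the H3K79 methyltransferase, was at 6.71, 7.37 and 5.53 TPM in TC and 16.2, 13.6 and 21.0 TPM in TM (log2 difference -1.24, SE 0.22, limma adjusted p = 0.0803). KMT5C (-1.06), EHMT1 (-0.89), EHMT2 (-0.50), EZH2 (-0.498) and SETDB1 (-0.496) were the other 5, and SUV39H2 was at the upper end (-0.18). Of these 12 enzymes, DOT1L and KMT5C had a larger difference than any of the 10 members.

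**Figure D5:**
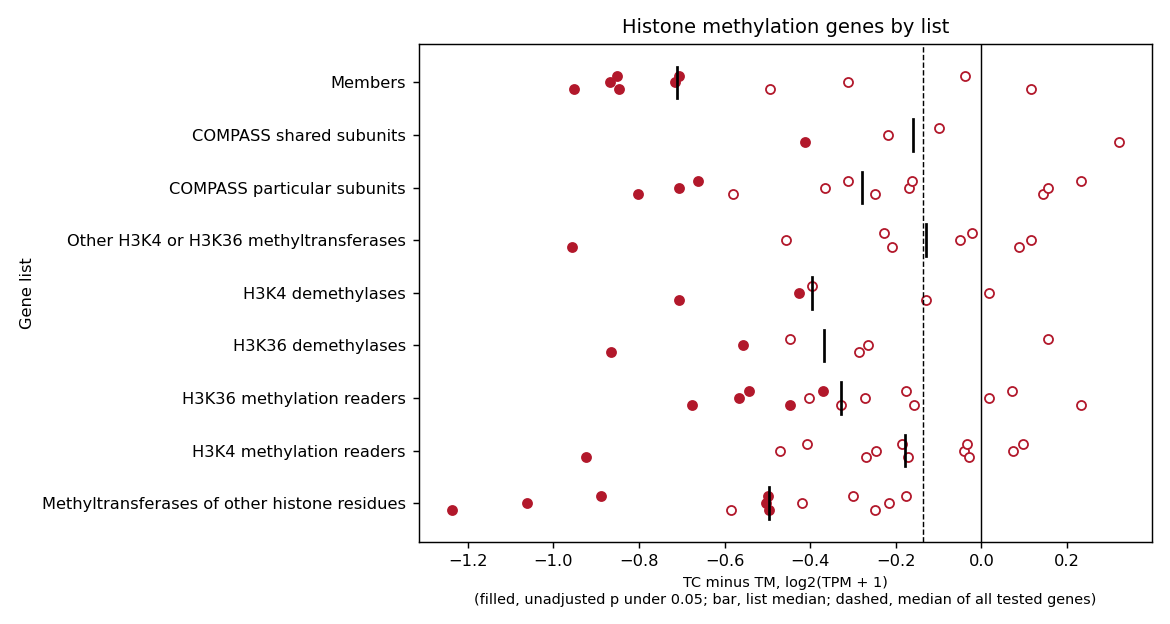
TC minus TM difference in log2(TPM + 1) of each tested gene (circle, filled at an unadjusted p-value under 0.05) in the family and in 8 other lists, with a bar at each list's median and a dashed line at the median of all tested genes (-0.14). The members have the lowest median (-0.71), and the methyltransferases of other residues lie next to them (-0.497).

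The genes whose pattern over the 6 samples was most like the mean of the members, among genes with a mean of at least 10 TPM, were UBP1 (Pearson r = 0.997), TRRAP (0.995), EP300 (0.993), CELF1 (0.988) and TYW3 (0.988). These correlations over 6 samples serve as a description. EP300, an acetyltransferase of histones at enhancers, was at 20.3, 14.6 and 11.7 TPM in TC and 28.0, 22.8 and 22.2 TPM in TM (limma adjusted p = 0.206), and TRRAP, a large scaffold of acetyltransferase complexes, was at 16.2, 13.7 and 11.3 TPM in TC and 21.1, 18.0 and 19.2 TPM in TM. Among the members themselves, r with that mean, which each of them enters, was 0.976 for KMT2D and 0.855 to 0.931 for KMT2A, KMT2B, KMT2C, SETD1B, NSD1 and NSD2, and it was lower for SETD1A (0.641), SETD2 (0.581) and NSD3 (0.301).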

How the data were processed

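RNA of 3 TC and 3 TM samples of MDA-MB-231 xenografts was sequenced as paired reads. According to the methods and the submitters' processing notes, SeqPrep and Sickle served for trimming, HISAT2 for alignment (hg38), StringTie for assembly and RSEM for quantification, and the authors deposited TPM per gene. Versions and the annotation release were not given in the sources used here. Other value columns numbered 0. TPM keeps no depth, so the count model of the study could not be run and no counting interval is given.

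Groups came from sample titles. Symbols and gene positions came from an Ensembl table and GENCODE v29 (96.3% of annotated genes matched), and 259 assembled loci were left out. TC and TM were compared with limma 3.58.1 in R 4.3.3 (trended empirical Bayes, two-sided, Benjamini-Hochberg over 13861 genes) on log2(TPM + 1), which understates changes of low genes. Ratios were tested by exact permutation (scipy 1.17.1).

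All members were named, and from each other list the lowest, the highest and those at an unadjusted p-value under 0.05. The members, lists and tests were chosen with earlier results of these data known. As 17 alternatives, the fit was repeated with a pseudocount of 0.1, no filter, a mean of at least 5 TPM, quantile and median-of-ratios scaling, removal of mitochondrial genes or of the length and GC trend (splines with 4 degrees of freedom), inclusion of assembled loci, a replicate block, 2 other empirical Bayes forms and each sample left out.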

Additional observations from a re-analysis of the deposited data

How the results depend on the processing

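Over the 17 alternatives 0 members were called, with a smallest adjusted p-value of 0.0653 (limma, NSD2), and 0 genes of the other lists were called. KMT2B, KMT2D and NSD2 kept an unadjusted p-value under 0.05 in all 17, SETD1A in 16, SETD1B in 12, KMT2C in 7 and KMT2A in 1, while NSD1, SETD2 and NSD3 reached it in 0. Removal of the length and GC trend left 3 members at that threshold in place of 6 and moved the members' median log2 difference from -0.71 to -0.367.

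Only the signs of SETD2 and NSD3 and of 1 ratio turned. SETD2 was at 0.159 after quantile normalization, 0.131 after median-of-ratios rescaling and 0.142 after removal of the trend, and from -0.225 to 0.175 when a sample was left out, positive without TC replicate 3 or TM replicate 1. NSD3 ranged from -0.196 to 0.365, negative without TC replicate 1 or TM replicate 3. The difference of the SETD1A to SETD1B ratio ranged from -0.386 to 0.272 and was positive without TM replicate 2. The cause was not tested.

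Of all genes 19 were called, against 7 with a pseudocount of 0.1 or after removal of the trend, 1 without a filter, 4 after quantile normalization, 6 after median-of-ratios rescaling, 12 without an empirical Bayes trend, 47 with the robust form, and 1 (TC replicate 3 or TM replicate 1 left out) to 17 (TM replicate 3) without a sample. With the replicate block 1 gene was called. The block moved the members at an unadjusted p-value under 0.05 from 6 to 5. Deviations from the group means correlated at 0.211, -0.121 and -0.165 in same-numbered samples. TC replicate 3 and TM replicate 2, of different numbers, correlated higher, at 0.317, so these values cannot settle the pairing. The study separated core and margin of its tumors, but whether same-numbered samples share a tumor is not given in the labels. With 3 samples a group and unknown depth, an interval that includes 0 does not show that a member is unchanged.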
